A study of Mus musculus with 75 samples.

Results

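Circadian clock genes were examined in the lungs of mice with bleomycin-induced fibrosis (BLEO-IPF) over 6 weeks. The 10 genes were fixed by symbol: Arntl, Npas2, Clock, Per1, Per2, Per3, Nr1d1, Nr1d2, Dbp and Tef. Each symbol matched 1 row of the count table of 55536 genes, and all 10 passed the filter on low counts that left 16221 genes for testing. RNA came from the inferior lung lobe of 75 male C57BL/6JRj mice, with 1 library per mouse. Bleomycin, a DNA-damaging antineoplastic drug, had been given once into the trachea at an age of 12 to 14 weeks. Controls (CTRL) numbered 10. Of the BLEO-IPF mice, 10 were taken on day 7, 12 each at 14, 21, 28 and 35 days, and 7 at 42 days. The labels call the controls saline-treated, whereas the treatment protocol calls them untreated. The labels name no modified allele in any group. BLEO-IPF mice had been kept only where body weight had dropped by 5% to 17% on day 6, so mice with a weaker or stronger response are absent. Libraries held 9240291 to 14665247 counts on genes (median 10677163).

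The clock is a feedback loop of transcription that runs in nearly every cell. The proteins of Arntl (BMAL1) and of Clock or its relative Npas2 pair up, bind E-box motifs and switch on the Per and Cry genes, whose products then inhibit the pair. A second loop is closed by Nr1d1 and Nr1d2, which encode the nuclear receptors REV-ERBα and REV-ERBβ and repress Arntl, Npas2 and Clock through motifs shared with the ROR receptors. Dbp and Tef encode PAR bZIP factors that act on D-box motifs, where the product of Nfil3 opposes them. The levels of these RNAs therefore swing over the day, Arntl and Npas2 in antiphase to Dbp, Nr1d1 and the Per genes, and in the lung the clock of airway epithelial cells is known to time the recruitment of neutrophils. The hour at which each mouse was killed is not given in the sources used here. A difference in collection time between CTRL and BLEO-IPF mice, or between days, cannot be told apart from a difference between the groups, and this holds for every comparison that follows.

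To show the letters through which the loop is wired, the RefSeq promoter windows of the genes (GRCm38.p6, 250 bases before to 50 after each start) were searched on both strands for the E-box CACGTG, the D-box TTATGTAA or TTACGTAA, the core TAGGTCA of the element bound by REV-ERB and ROR receptors, and the CRE TGACGTCA. Of the 10 genes, 9 matched a symbol there, with 14 windows. The E-box was in 3 of the 14 windows, against 7.15% of all 32851 promoter windows. The D-box was in 1 window (1.06% of all windows), the TAGGTCA core in 1 (2.61%) and the CRE in 0 (1.79%). No searched motif overlapped another in these windows. The stretches with a match are given 5′ to 3′ on the strand of the gene, with the motif in capitals.
Per1, chr11:69098763-69098808, plus strand, E-box: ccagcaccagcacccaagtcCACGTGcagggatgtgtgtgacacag
Tef first start, chr15:81802526-81802571, plus strand, E-box: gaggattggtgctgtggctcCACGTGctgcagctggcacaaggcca
Tef second start, chr15:81811256-81811301, plus strand, E-box: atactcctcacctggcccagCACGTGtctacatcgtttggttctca
Per3, chr4:151044796-151044890, minus strand, 2 D-boxes: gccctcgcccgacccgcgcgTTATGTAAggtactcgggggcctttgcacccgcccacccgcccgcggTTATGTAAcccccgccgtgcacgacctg
Arntl second start, chr7:113207530-113207559, plus strand, TAGGTCA core: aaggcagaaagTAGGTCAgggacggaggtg
The other 9 windows held none of the 4 motifs.

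Against CTRL, the positive arm was higher and the repressors and output factors were lower after bleomycin. By edgeR's quasi-likelihood test, with adjusted p under 0.05 over all genes tested, 2 clock genes were higher and 7 lower on day 7, where 24.8% of all genes were called higher and 21.0% lower. On day 14, 3 were higher and 7 lower (32.4% and 29.9% of all genes). The same split of 3 and 7 was seen on day 21 (28.3% and 25.8%) and, a week later, on day 28 (24.1% and 19.2%). On day 35 it was 3 and 5 (16.9% and 13.1%), and on day 42 it was 3 and 6 (13.7% and 11.0%). Of the 10 genes, 7 were called on all 6 days, namely Arntl and Npas2 as higher (8.33% of all genes tested) and Per1, Per2, Per3, Nr1d2 and Tef as lower (5.31%). The 6 comparisons share the CTRL mice, so their calls are not independent of each other. The unit of level is CPM, in which read counts are made comparable between libraries by their size and TMM factor. A change is a log2 fold change with its standard error (SE).

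**Figure D1:**
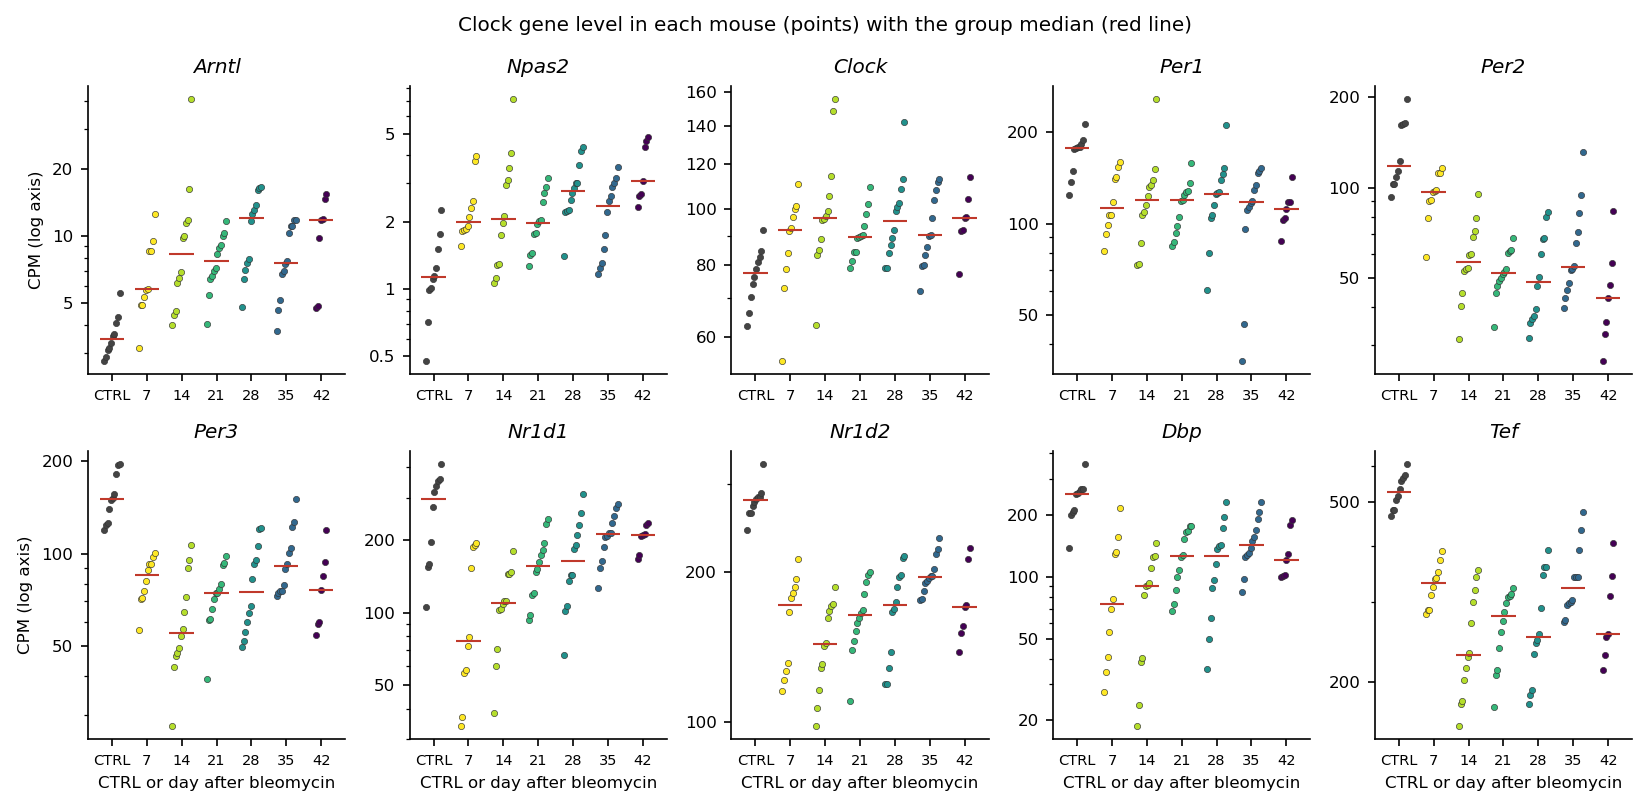
Level of each clock gene in CPM (log axis) in every mouse, by group on the horizontal axis (CTRL, or day after bleomycin), with the points of a group sorted by level and a red line at the median. On every day the medians of Arntl and Npas2 are above that of CTRL, and those of Per2, Per3, Nr1d2 and Tef below it. Single mice of these genes overlap with CTRL, except in Nr1d2. In Arntl, 1 mouse on day 14 reaches 40.9 CPM.

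Arntl (ENSMUSG00000055116, chromosome 7, 113207465 to 113314126 of GRCm38), the partner that both forms of the activating pair need, was at 2.76, 3.45 and 5.57 CPM (lowest, median and highest mouse) in CTRL. It was at 3.17, 5.79 and 12.5 CPM on day 7 and at 4.02, 8.34 and 40.9 CPM on day 14. On day 21 it was at 4.06, 7.75 and 11.6 CPM, and on day 28 at 4.83, 12.1 and 16.5 CPM. Every day overlapped with CTRL, but 50 of the 65 BLEO-IPF mice lay above the highest CTRL mouse and 0 below the lowest. The values were 3.78, 7.60 and 11.8 CPM on day 35 and 4.76, 11.7 and 15.4 CPM on day 42. The log2 fold change was 0.92 ± 0.29 on day 7 (SE, adjusted p = 0.00756), a level 1.90 times that of CTRL. It was 1.60 ± 0.28 on day 14 (adjusted p = 1.39e-06) and 1.61 ± 0.28 on day 28 (adjusted p = 4.37e-06, 3.06 times CTRL). At the last time point, day 42, it was 1.52 ± 0.31 (adjusted p = 0.000175).

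The mouse at 40.9 CPM of Arntl, replicate 8 of day 14, stood apart from the other 11 mice of its day, of which the highest had 16.2 CPM. It also had the most Npas2 (7.14 CPM) and Per1 (257 CPM), and the least Per3 (27.5 CPM), Nr1d2 (98.1 CPM) and Dbp (18.8 CPM), of all 75 mice. The summed level of 5 neutrophil markers was 529 CPM in this mouse and 157 CPM in the next highest of all mice. Among the 12 mice of day 14, it was also first in alveolar macrophage markers and last in T cell, proliferation, red blood cell and skeletal muscle markers. Without it, the day 14 log2 fold change of Arntl was 1.198 (adjusted p = 2.19e-05) and that of Npas2 0.85 (adjusted p = 0.00146), and all 10 genes were still called on day 14.

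Npas2 (ENSMUSG00000026077, chromosome 1), which can stand in for Clock, was the rarest of the 10, with 5 to 23 counts per CTRL library. It was at 0.475, 1.13 and 2.27 CPM in CTRL and at 2.33, 3.08 and 4.83 CPM on day 42. All 7 mice of day 42 lay above every CTRL mouse, which held for 4.22% of all genes tested. The log2 fold change lay between 0.75 ± 0.25 on day 21 (adjusted p = 0.00972) and 1.51 ± 0.28 on day 42 (adjusted p = 3.40e-05). Clock (ENSMUSG00000029238, chromosome 5), the other partner, changed much less. It was at 62.8, 77.5 and 91.9 CPM in CTRL and at 62.9, 96.8 and 156 CPM on day 14, when 8 of 12 mice lay above the highest CTRL mouse. Its log2 fold change was 0.42 ± 0.10 on day 14 (adjusted p = 0.000316) and 0.35 ± 0.10 on day 28 (adjusted p = 0.00404). On day 7 it was 0.20 ± 0.11 and did not pass (adjusted p = 0.116). The calls on day 21 (0.24 ± 0.10, adjusted p = 0.0396), day 35 (0.27 ± 0.10, adjusted p = 0.0346) and day 42 (0.32 ± 0.12, adjusted p = 0.0340) were each lost when single mice were left out.

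The 3 Period genes, which encode the inhibitors of the activating pair, were lower on all 6 days. Per2 (ENSMUSG00000055866, chromosome 1, 91415982 to 91459324) was at 92.8, 118 and 197 CPM in CTRL, at 58.6, 97.0 and 116 CPM on day 7 and at 31.4, 56.8 and 95.0 CPM on day 14. The values were 34.4, 52.02 and 68.2 CPM on day 21 and 31.7, 48.7 and 83.2 CPM on day 28. Day 35 had 39.8, 54.3 and 131 CPM, and day 42 had 26.5, 42.97 and 83.5 CPM. Every mouse of days 21, 28 and 42 lay below the lowest CTRL mouse, as did 4.85%, 1.34% and 3.37% of all genes tested. On day 7, by contrast, 4 of 10 mice did. Per2 had a log2 fold change of -0.48 ± 0.18 on day 7 (adjusted p = 0.0267), -1.17 ± 0.18 on day 14 (adjusted p = 4.89e-08) and -1.52 ± 0.21 on day 42 (adjusted p = 1.27e-07, 0.349 times CTRL). The day 7 call of Per2 was lost without day 7 replicate 3 (adjusted p = 0.0566) or without CTRL replicate 10 (adjusted p = 0.0746).

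Per3 (ENSMUSG00000028957, chromosome 4, 151003652 to 151044665), whose promoter carries the 2 D-boxes printed above, was at 119, 150 and 196 CPM in CTRL. It was lowest on day 14, at 27.5, 55.4 and 107 CPM, and every mouse of days 7, 14, 21 and 42 lay below every CTRL mouse (3.80%, 6.15%, 4.85% and 3.37% of all genes). The log2 fold change was -1.29 ± 0.16 on day 14 (adjusted p = 4.83e-10) and -0.66 ± 0.16 on day 35 (adjusted p = 0.00106). Camta1 overlaps it on the same strand and had 18.98% as many counts, so reads could be shared. Per1 (ENSMUSG00000020893, chromosome 11), which responds acutely to glucocorticoids and other signals in addition to its E-boxes, differed less and in a flat course. It was at 125, 178 and 214 CPM in CTRL and at 72.7, 119 and 257 CPM on day 14. The log2 fold change stayed between -0.60 ± 0.20 on day 42 (adjusted p = 0.0208) and -0.45 ± 0.17 on day 14 (adjusted p = 0.0194). Its call on day 28 was lost without day 28 replicate 9 (adjusted p = 0.0566) or CTRL replicate 10 (adjusted p = 0.0525).

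**Figure D2:**
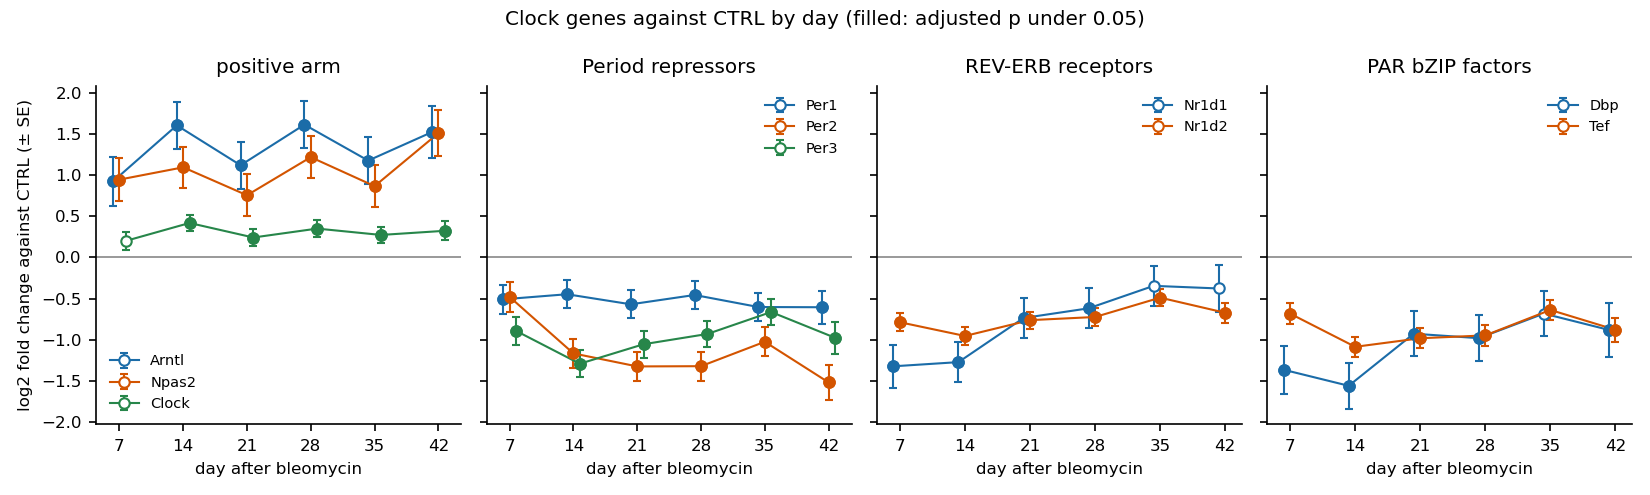
Log2 fold change against CTRL (points, with bars of 1 SE) on each day after bleomycin for the 4 groups of clock genes, filled where adjusted p is under 0.05. Nr1d1 goes from -1.32 on day 7 to -0.38 on day 42, whereas Per2 goes from -0.48 to -1.52.

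Both REV-ERB receptors were lower on days 7 to 28. Nr1d1 (ENSMUSG00000020889, chromosome 11, 98767932 to 98775333) varied widely already in CTRL, where it was at 106, 295 and 414 CPM. The values were 33.98, 76.4 and 195 CPM on day 7 and 38.6, 110 and 180 CPM on day 14. Day 21 had 93.8, 157 and 244 CPM, and day 28 had 66.9, 164 and 309 CPM. They reached 127, 212 and 283 CPM on day 35 and 167, 210 and 236 CPM on day 42. The median was thus lowest on day 7, and on days 35 and 42 all mice lay within the range of CTRL. Nr1d1 had a log2 fold change of -1.32 ± 0.26 on day 7 (adjusted p = 2.22e-05) and -1.27 ± 0.24 on day 14 (adjusted p = 7.10e-06). It was -0.35 ± 0.24 on day 35 (adjusted p = 0.292) and -0.38 ± 0.28 on day 42 (adjusted p = 0.340), which did not pass. The day 28 call (-0.62 ± 0.24, adjusted p = 0.0320) was lost in 7 of 22 fits that left out 1 mouse. Thra lies across its end on the opposite strand with 61.4% as many counts, and the strand setting of the counting is not given in the sources used here, so reads of the pair may be mixed.

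Nr1d2 (ENSMUSG00000021775, chromosome 14, 18204054 to 18239127) overlaps no other gene. Its SD of log2 CPM within groups was 0.25, against 0.61 for Nr1d1. CTRL mice had 243, 279 and 330 CPM, and the mice of day 7 had 116, 172 and 212 CPM. The values were 98.1, 143 and 186 CPM on day 14 and 110, 164 and 200 CPM on day 21. Day 28 had 119, 171 and 216 CPM, day 35 had 176, 195 and 234 CPM and day 42 had 138, 170 and 224 CPM. All 65 BLEO-IPF mice lay below the lowest CTRL mouse, which held for 0.302% of all genes tested (49 genes) and for no other clock gene. Its log2 fold change was -0.95 ± 0.10 on day 14 (adjusted p = 4.36e-12, 0.516 times CTRL) and -0.49 ± 0.10 on day 35 (adjusted p = 0.000172).

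The PAR bZIP factors were lower as well. Dbp (ENSMUSG00000059824, chromosome 7, 45705088 to 45710203), a direct target of the activating pair, was at 138, 255 and 356 CPM in CTRL, and on day 7 at 27.5, 74.2 and 216 CPM. The values were 18.8, 90.6 and 147 CPM on day 14 and 68.3, 126 and 177 CPM on day 21. Day 28 had 35.5, 126 and 233 CPM, day 35 had 84.1, 144 and 232 CPM and day 42 had 100.02, 122 and 189 CPM. The spread within a day was large, and 43 of 65 BLEO-IPF mice lay below the lowest CTRL mouse. Dbp had a log2 fold change of -1.36 ± 0.29 on day 7 (adjusted p = 0.000104) and -1.56 ± 0.28 on day 14 (adjusted p = 1.91e-06, 0.339 times CTRL). On day 35 it was -0.68 ± 0.27 and just missed the threshold (adjusted p = 0.0509), but a fit of only day 35 and CTRL gave adjusted p = 0.000960. On day 42 it was -0.88 ± 0.32 (adjusted p = 0.0382), a call lost in 7 of 17 fits that left out 1 mouse. Sphk2 overlaps Dbp on the opposite strand with 25.8% as many counts. Tef (ENSMUSG00000022389, chromosome 15, 81802421 to 81826863), whose 2 starts each carry the E-box shown above, was at 464, 524 and 605 CPM in CTRL and at 160.0, 229 and 353 CPM on day 14. Its log2 fold change was -1.09 ± 0.12 on day 14 (adjusted p = 1.82e-11) and -0.64 ± 0.12 on day 35 (adjusted p = 4.07e-05). In total 64 of 65 BLEO-IPF mice lay below the lowest CTRL mouse, the exception being a mouse of day 35 at 475 CPM.

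Per length, the order of the genes in CTRL ran from Nr1d1 (86.6 ± 34.1 CPM per kilobase of exon, mean ± SD, n = 10) through Dbp (81.0 ± 19.2), Tef (66.98 ± 5.95) and Nr1d2 (51.5 ± 4.18) to Per1 (30.3 ± 4.66), Per2 (22.7 ± 6.05) and Per3 (16.01 ± 2.96). Clock followed at 5.60 ± 0.648, Arntl at 0.484 ± 0.112 and Npas2 at 0.256 ± 0.108 CPM per kilobase. The neighbors Nr1d1 and Dbp, and Dbp and Tef, differed by less than the SD of the more variable gene. On day 14, the mean level of Clock (7.49 ± 1.92 CPM per kilobase, n = 12) was above that of Per3 (6.54 ± 2.49), a difference within their SDs. Other places in the order also changed. Tef was first on day 7, followed by Nr1d1, and above Dbp on day 14, and Per3 was above Per2 on day 42. Each of these differences was less than the SD of the more variable gene.

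The BLEO-IPF days were then compared with each other. The CTRL mice enter this test through the shared estimate of the spread but not through a mean. Of the 10 genes, 6 differed among the 6 days, against 48.3% of all genes tested. These were Per2 (adjusted p = 5.03e-05), Nr1d1 (0.000829), Nr1d2 (0.00376), Tef (0.00622), Per3 (0.0208) and Dbp (0.0464). In a fit without the CTRL mice, 5 genes passed and Dbp did not (adjusted p = 0.0707). Per3 was no longer called without day 35 replicate 11 (adjusted p = 0.0503), and Dbp in 38 of 65 fits that left out 1 mouse. Arntl (adjusted p = 0.0842), Npas2 (0.0969), Clock (0.381) and Per1 (0.908) did not pass. Arntl passed without day 14 replicate 11 or day 7 replicate 5 (lowest adjusted p = 0.0432), and Npas2 without day 14 replicate 8 (0.0397). Between neighboring days, 2 genes changed from day 7 to day 14, against 17.0% of all genes. Per2 fell by 0.69 ± 0.18 on the log2 scale (adjusted p = 0.00437) and Tef fell by 0.40 ± 0.12 (adjusted p = 0.0174). Over the same week, Arntl differed by 0.68 ± 0.27 (adjusted p = 0.0651), and this passed in 5 of 22 fits that left out 1 mouse. Of the later neighbors, none differed in any clock gene by edgeR, while 1.03%, 0.727%, 1.27% and 0.00% of all genes did, and DESeq2 also called 0. At an unadjusted p under 0.05, 2 of the 10 genes differed from day 14 to day 21, 1 from day 21 to day 28, 2 from day 28 to day 35 and 2 from day 35 to day 42.

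Mice of 1 group also differed from each other in the clock genes, and in several of them more than in most other genes. The SD of log2 CPM within groups was 0.71 for Dbp, 0.61 for Nr1d1, 0.61 for Arntl and 0.52 for Npas2, against a median of 0.24 over all genes tested. Dbp thus ranked at the 95.4th percentile of all genes. Nr1d2 (0.25) and Clock (0.24) were near the median, and Tef was at the 60.8th percentile. This ranking takes no account of level, and Arntl had only 29 to 60 and Npas2 5 to 23 counts per CTRL library. To ask whether the spread is shared, the levels of Arntl were correlated with those of each other clock gene over the 75 mice after removal of the group means, with 9 pairs, a permutation test within groups (100000 permutations, two-sided) and Benjamini-Hochberg adjustment over the 9. All levels of a mouse come from 1 library. In some groups Nr1d1 and Per2 split by replicate number (values in the section on processing), and the permutations ignore this number.

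Arntl was opposite to Dbp (r = -0.835, rho = -0.862), Tef (r = -0.811, rho = -0.846), Nr1d2 (r = -0.777, rho = -0.788) and Per3 (r = -0.769, rho = -0.735). It went with Clock (r = 0.672, rho = 0.666) and Npas2 (r = 0.626, rho = 0.575). For these 6 genes the permutation p was 1e-05, the smallest that the permutations can give, and 1.5e-05 after adjustment. Per2 (r = -0.531, rho = -0.564) and Nr1d1 (r = -0.451, rho = -0.508) were also opposite to Arntl (permutation p = 5e-05 for both r, adjusted 5.6e-05, and 3e-05 and 2e-05 for rho, adjusted 3.4e-05 and 2.6e-05). Per1 showed no relation (r = -0.000238, permutation p = 1; rho = -0.0694, permutation p = 0.57, both also after adjustment). Without the 2 mice farthest from the median of Arntl, day 14 replicate 8 and CTRL replicate 6, r was -0.813 for Dbp, -0.833 for Tef, -0.764 for Nr1d2, -0.738 for Per3, 0.628 for Clock, 0.546 for Npas2, -0.599 for Per2, -0.508 for Nr1d1 and -0.187 for Per1.

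Within single groups, r of Arntl with Dbp was -0.964 on day 7 (n = 10), -0.909 on day 14 (n = 12), -0.856 on day 21 (n = 12) and -0.843 on day 28 (n = 12). It was -0.808 on day 35 (n = 12) and -0.965 on day 42 (n = 7), but only -0.205 within CTRL (n = 10). Tef ranged from -0.939 on day 35 to -0.360 within CTRL, and Nr1d2 from -0.904 on day 7 to -0.209 within CTRL. Within CTRL, r uses 10 mice with only 29 to 60 counts of Arntl each, which limits what a low r there can show. The relation with Per3 was not seen within CTRL (r = 0.216), nor was that with Nr1d1 within CTRL (r = 0.0963) or on day 35 (r = 0.0648). With Per2 it had the opposite sign on day 7 (r = 0.639) and was near 0 within CTRL (r = -0.0320). Per1 ranged from -0.622 on day 42 to 0.612 on day 14. Clock ranged from 0.413 on day 21 to 0.868 on day 7 and Npas2 from 0.334 on day 35 to 0.821 on day 14.

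**Figure D3:**
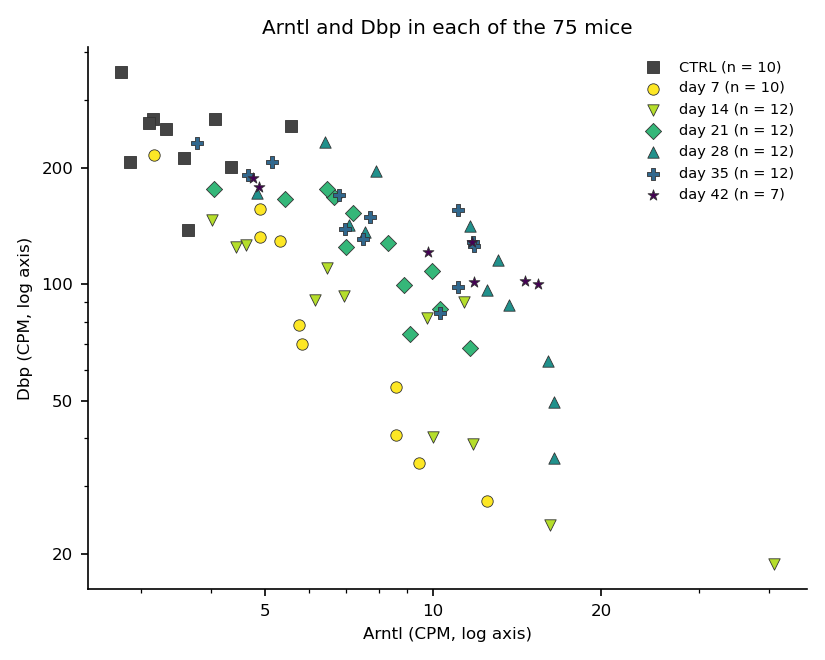
Arntl (horizontal) against Dbp (vertical) in CPM on log axes, 1 point per mouse, with symbol and color by group. The CTRL mice lie at the upper left, between 2.76 and 5.57 CPM of Arntl and 138 and 356 CPM of Dbp, and mice of each BLEO-IPF day spread from there toward the lower right.

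The difference of log2 CPM between Arntl and Dbp within a mouse summarizes this spread. It was between -6.92 and -5.18 in CTRL (median -6.04). In the order of the 6 days, its median was -3.64, -3.38, -4.02, -3.36, -4.17 and -3.44. The number of mice above the highest CTRL mouse was 9 of 10, 12 of 12, 11 of 12, 12 of 12, 9 of 12 and 6 of 7 on the 6 days. On day 7 the mice ranged from -6.01, inside the CTRL range, to -1.13. This difference uses levels whose group changes are given above and was not tested.

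**Figure D4:**
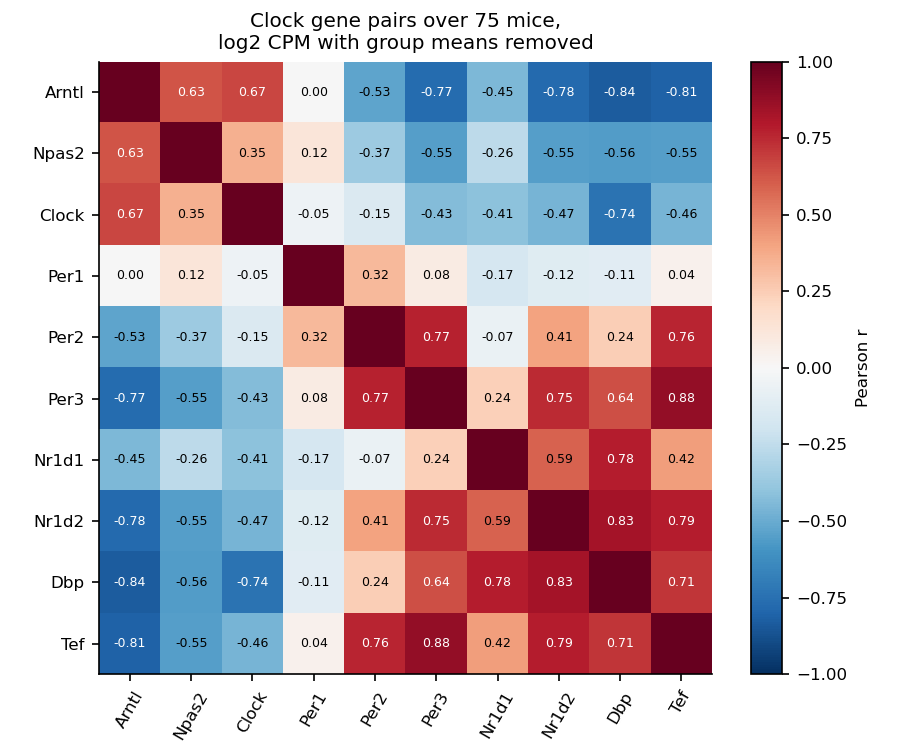
Pearson r of each pair of clock genes over 75 mice, in log2 CPM with the group means removed, from blue (-1) to red (1). Of the 21 pairs of a positive arm gene with another gene, 20 are negative (median r = -0.468), and Per1 stands apart with r near 0 to most genes.

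Among the pairs without Arntl, Tef and Per3 had the highest r of all 45 pairs (0.879), and Dbp went with Nr1d2 (0.833). The 3 pairs within the positive arm had r of 0.354 to 0.672. The 21 pairs among the other 7 genes ranged from -0.171 to 0.879 (median 0.422), and 4 were negative.

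Over all genes tested, the 8 with the highest r with Arntl were Dtx4 (0.688), Nfil3 (0.685), Map4k4 (0.678), Adm (0.677), Leo1 (0.676), Rhoj (0.676), Clock (0.672, a clock gene of the list) and Camk2d (0.657). The 8 with the lowest were Dbp, Tef, Nr1d2 and Per3 of the list, then Ephx1 (-0.757), Hlf (-0.739), Bhlhe41 (-0.737) and Cys1 (-0.737). Of the genes outside the list, Nfil3 encodes the repressor of D-box sites, Hlf the third PAR bZIP factor and Bhlhe41 an E-box repressor. The 8 genes most like Dbp were Ephx1 (0.837), Nr1d2 (0.833), Gsg1l (0.810), Hdac11 (0.801), Pltp (0.794), Nr1d1 (0.783), Hlf (0.778) and Fuz (0.771). The 8 most opposite to Dbp were Arntl (-0.835), Nfil3 (-0.795), Etf1 (-0.775), Adam9 (-0.765), Rasl11a (-0.757), Riok3 (-0.753), Sgk1 (-0.750) and Uso1 (-0.746). These likenesses were computed over 75 mice with group means removed and are a description.

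Of 20 other clock components, 19 were tested. In the order of the days, the numbers called higher were 3, 5, 5, 4, 2 and 0, and the numbers called lower were 8, 10, 11, 11, 8 and 7. These are 15.8%, 26.3%, 26.3%, 21.1%, 10.5% and 0% higher, against 24.8%, 32.4%, 28.3%, 24.1%, 16.9% and 13.7% of all genes tested, and 42.1%, 52.6%, 57.9%, 57.9%, 42.1% and 36.8% lower, against 21.0%, 29.9%, 25.8%, 19.2%, 13.1% and 11.0%. The list had a median log2 fold change between -0.24 on day 21 and -0.11 on day 7. The median over all genes tested was between -0.00238 and 0.0180. CTRL mice had 3.97 ± 0.891 CPM of Nfil3 (SD, n = 10), whose log2 fold change was 2.40 ± 0.31 on day 14 (adjusted p = 9.06e-10). On days 35 (0.78 ± 0.31, adjusted p = 0.0524) and 42 (0.90 ± 0.35, adjusted p = 0.0511) it did not pass. Hlf, at 83.2 ± 7.34 CPM in CTRL, was lower on all 6 days, by a log2 fold change of -0.87 ± 0.19 on day 7 (adjusted p = 0.000100) to -1.61 ± 0.22 on day 42 (adjusted p = 4.83e-08). Cry1, a Period partner in inhibition, had a log2 fold change of 0.11 ± 0.16 on day 7 (adjusted p = 0.609) and was lower from day 14 on, by -0.35 ± 0.16 on that day (adjusted p = 0.0494) and -1.09 ± 0.19 on day 42 (adjusted p = 1.55e-05).

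**Figure D5:**
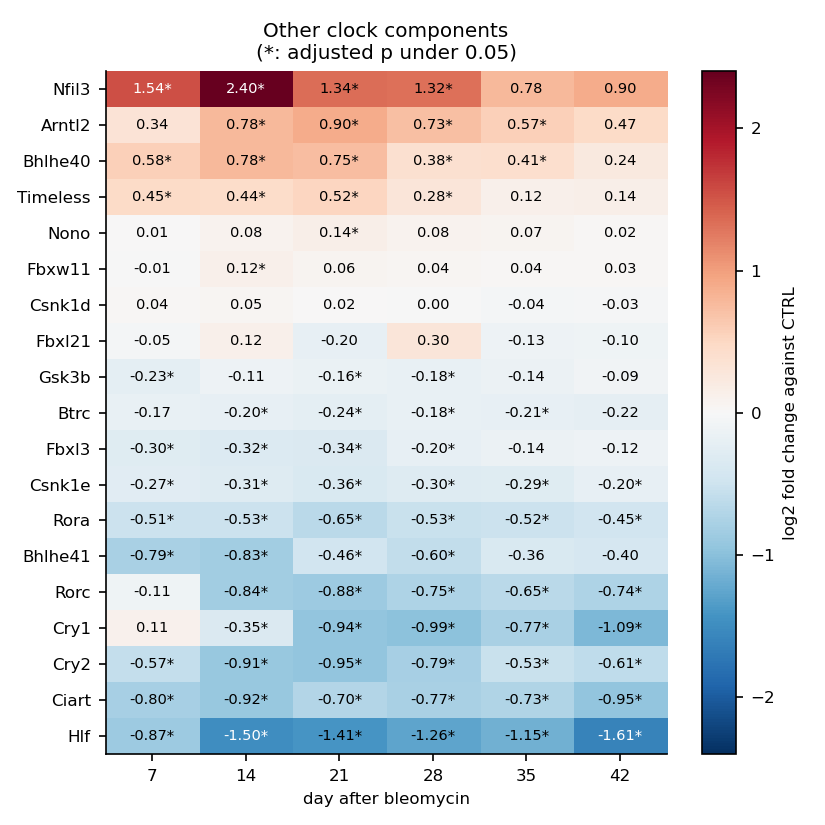
Log2 fold change against CTRL of the 19 other clock components tested (rows) on each day after bleomycin (columns), blue where lower and red where higher, with a star where adjusted p is under 0.05. Nfil3 at the top reaches 2.40 on day 14, and Hlf at the bottom reaches -1.61 on day 42.

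Among 6 clock output genes, 2, 2, 1, 1, 1 and 1 were higher and 2, 3, 4, 4, 4 and 5 lower on the 6 days, which is 16.7% to 33.3% higher and 33.3% to 83.3% lower (shares of all genes as for the other components). Cdkn1a, a cell cycle inhibitor that is also a p53 target, was higher on all days, by 3.20 ± 0.16 on day 7 (adjusted p = 1.38e-27). Usp2, a deubiquitinase, was lower on all days, by -1.15 ± 0.16 on day 42 (adjusted p = 1.16e-07), and so was Tsc22d3, which also responds to glucocorticoids (-0.78 ± 0.15 on day 21, adjusted p = 1.30e-05).

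Signals that can reset a clock were described with 3 further lists. Beside their counts, 24.8%, 32.4%, 28.3%, 24.1%, 16.9% and 13.7% of all genes were called higher on the 6 days. The shares called lower were 21.0%, 29.9%, 25.8%, 19.2%, 13.1% and 11.0%. Of 11 glucocorticoid response genes, 4, 5, 3, 4, 2 and 2 were higher and 2, 3, 4, 2, 4 and 3 lower on the 6 days. On day 14 this is 45.5% higher and 27.3% lower, against 32.4% and 29.9% of all genes. On day 35 it was 18.18% higher and 36.36% lower, against 16.9% and 13.1%. The metallothioneins Mt2 (4.28 ± 0.52, adjusted p = 8.88e-11) and Mt1 (2.54 ± 0.34, adjusted p = 1.86e-09) and the glucocorticoid receptor co-chaperone Fkbp5 (1.90 ± 0.34, adjusted p = 1.63e-06) were the members with the largest changes, all on day 14. Of 13 immediate early genes, 4, 5, 4, 3, 3 and 2 were higher and 2, 2, 6, 3, 6 and 2 lower. On day 7 this is 30.8% and 15.4%, against 24.8% and 21.0% of all genes, and on day 28 23.1% and 23.1%, against 24.1% and 19.2%. On day 21 it was 30.77% higher and 46.15% lower, against 28.3% and 25.8% of all genes. On day 35 it was 23.08% and 46.15%, against 16.9% and 13.1%. The members with the largest changes were the transcription factors Egr2 (1.91 ± 0.20, adjusted p = 4.93e-13) and Atf3 (1.33 ± 0.16, adjusted p = 1.49e-10) on day 14 and Egr3 (1.22 ± 0.26 on day 14, adjusted p = 3.58e-05). Of 9 temperature response genes, 4, 4, 2, 0, 0 and 0 were higher and 0, 0, 1, 0, 0 and 1 lower. On day 14 this is 44.4% higher and 0% lower, against 32.4% and 29.9% of all genes. On days 28, 35 and 42 it was 0% higher, against 24.1%, 16.9% and 13.7%. Rbm3, a cold-inducible RNA-binding protein, was higher on day 14 (0.73 ± 0.14, adjusted p = 4.09e-06), Cirbp was lower on day 21 (-0.44 ± 0.15, adjusted p = 0.0105) and Hsph1 was lower on day 42 (-0.42 ± 0.16, adjusted p = 0.0366). Their part in the clock gene differences was not tested.

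The levels of cell type markers in the lobe changed as well, and in bulk RNA fewer cells of a type and less RNA per cell cannot be told apart. For the counts that follow, 24.8%, 32.4%, 28.3%, 24.1%, 16.9% and 13.7% of all genes were called higher on the 6 days. The shares called lower were 21.0%, 29.9%, 25.8%, 19.2%, 13.1% and 11.0%. All 8 markers of monocyte-derived macrophages were higher on all 6 days, with a summed level of 203 to 259 CPM in CTRL and, in the order of the days, 427 to 966, 706 to 2034, 620 to 1324, 367 to 1412, 329 to 945 and 334 to 755 CPM. Of 5 airway epithelial markers, 3, 5, 5, 5, 1 and 1 were lower and 0 higher. Their summed level was 20908 to 28281 CPM in CTRL, then 7387 to 20765, 2425 to 16154, 5373 to 16647, 3663 to 20015, 10824 to 23815 and 13213 to 21254 CPM. Of 8 endothelial markers, 6, 7, 6, 6, 6 and 4 were lower and 0 higher, with 3839.5 to 5008 CPM in CTRL, then 2599.8 to 3311, 2015 to 3821, 2241 to 3696, 1733 to 4375, 2127 to 4282 and 2931 to 4505 CPM. All 4 proliferation markers were higher on days 7 to 35 and 1 on day 42, with 24.8 to 56.7 CPM in CTRL, then 90.7 to 201, 114 to 297, 75.9 to 314, 46.4 to 204, 37.95 to 153 and 32.4 to 101 CPM. None of the markers of these lists was at 0 in any group, nor were those of the alveolar AT1 cells (7 markers) and AT2 cells (8 markers) that define the lung. On day 42, AT1 markers summed to 5253 to 6067 CPM and AT2 markers to 24273 to 30500 CPM, against 4610 to 6116 and 22550 to 27528 CPM in CTRL. On day 14, by contrast, 6 of the 8 AT2 markers were lower and 0 higher (median log2 fold change -0.80). Of the 7 AT1 markers, 4 were lower and 1 higher on that day (median -0.34). The part of cell composition in the clock gene differences was not tested. Replicate 10 of day 28 held skeletal muscle markers at 838 CPM, against 13.3 CPM in the next highest mouse. Without that mouse, all 10 clock genes were still called on day 28.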

How the data were processed

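The authors prepared directional libraries of the inferior lobe, aligned the reads with STAR 2.7.0f to GRCm38 (Ensembl annotation), and deposited raw counts per gene without normalization. The program that counted reads and its strand setting are not given in the sources used here. Samples were grouped by the treatment and day in their labels. From the counts, edgeR 4.0.16 (R 4.3.3) was run with TMM factors, filterByExpr, 1 mean per group over all 75 mice and the quasi-likelihood F test, with Benjamini-Hochberg adjustment over 16221 genes and a threshold of 0.05. The SE is that of the fitted log2 fold change. Log2 CPM for correlations used a prior count of 2. Depth, between 9240291 and 14665247 counts per library, limited Npas2 most. All 375 same-group pairs of libraries differed beyond sampling noise (lowest chi-square per degree of freedom 3.88). The fit and the correlation step were tested on simulated data. The 10 genes and all lists were chosen with earlier results of these data known. Named in the text are the 10 genes, the 3 called members of each pathway list with the largest change, and the 8 genes most like and most opposite to Arntl and to Dbp. The alternatives were DESeq2 1.42.0, scaling by library size alone or by upper quartile, omission of the low-count filter, a minimum of 10 counts in each mouse, separate fits for each pair of groups, a block for the replicate number, an absolute log2 fold change of at least 0.5, and leaving out each of the 75 mice in turn. Promoter sequences are from RefSeq (GRCm38.p6). Marker lists not described in the report are given with the other observations.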

Additional observations from a re-analysis of the deposited data

Results flagged for a closer look

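In CTRL, the highest mouse of Nr1d2, replicate 6, was at 329.967 CPM and the next highest at 289 CPM, a gap beyond Dixon's 95% critical value for 10 mice. The 30 sets checked in this way were the 10 genes in the groups of at most 10 mice (CTRL, day 7 and day 42). Of these 30, 1 was past the value, and chance alone gives about 1 in 20. Groups of 12 mice were not checked, among them day 14, whose replicate 8 had 40.9 CPM of Arntl. Nr1d2 was called on all 6 days whichever mouse was left out.

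The 6 genes whose effect differed among the BLEO-IPF days, by the F test of edgeR over the 6 days, were Per2 (adjusted p = 5.03e-05), Nr1d1 (0.000829), Nr1d2 (0.00376), Tef (0.00622), Per3 (0.0208) and Dbp (0.0464). In the same test, 48.3% of all genes tested differed. Dbp did not pass in the fit without the CTRL mice (adjusted p = 0.07075) or in 38 of 65 fits that left out 1 mouse. Nr1d1 was farthest from CTRL on day 7 (log2 fold change -1.32) and nearest on day 35 (-0.35). Per2 was nearest on day 7 (-0.48) and farthest on day 42 (-1.52). Whether the courses of these 2 genes differ from each other was not tested.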

How the results depend on the processing

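No log2 fold change of a clock gene against CTRL changed its sign under any alternative. The number of the 10 genes called against CTRL was 8 or 9 on day 7 and 8 to 10 on days 14, 21 and 28. It was 6 to 9 on day 35 (8 reported) and 7 to 9 on day 42 (9 reported). From day 7 to day 14, the number called was 5 with the replicate block, 1 with an absolute log2 fold change of at least 0.5, and 2 to 4 when mice were left out. Clock was not called on days 21, 35 and 42, Nr1d1 on day 28 and Dbp on day 42 without the filter on low counts, which raised the number of genes tested, and Clock on day 21 when 10 counts were required in every mouse. Dbp was called on day 35 with the replicate block (-0.82, adjusted p = 0.0158), with 10 counts in every mouse (-0.69, adjusted p = 0.0492) and in the fit of only those groups (-0.67, adjusted p = 0.000960). Npas2 was not tested under the minimum of 10 counts. Over all genes tested together, mice with the same replicate number did not deviate together (median r = 0.00574 over 204 pairs, against 0.00183 for other pairs). In CTRL, however, Nr1d1 was at 275 to 414 CPM in replicates 1 to 6 and 106 to 196 CPM in replicates 7 to 10. Per2 was at 92.8 to 123 and 161 to 197 CPM there. On day 7, Nr1d1 was at 154 to 195 CPM in replicates 1 to 4 and 33.98 to 79.7 CPM in replicates 5 to 10. Day 42 had no such split of Nr1d1 (174 CPM in replicate 1, 232 in 6, 167 in 7). Per2 there was at 26.5 to 42.97 CPM in replicates 1 to 4 and 47.4 to 83.5 CPM in 5 to 7. Day 7 had 58.6 to 91.2 CPM in 1 to 4 and 96.9 to 116 CPM in 5 to 10. Day 14 had 31.4 to 68.4 CPM in 1 to 9 and 71.5 to 95.0 CPM in 10 to 12. Day 21 had 34.4 to 49.95 CPM in 1 to 5 and 51.5 to 68.2 CPM in 6 to 12. Day 35 had 39.8 to 82.3 CPM in 1 to 10 and 94.4 to 131 CPM in 11 and 12. Day 28 overlapped (67.5 CPM in 4, 47.1 in 9). These cuts were chosen on the values. The relation of single genes to the replicate number was not tested. The block moved no other count by over 1.5 times. Leaving out mice gained or lost calls in 2 of 20 fits on day 7, 0 of 22 on day 14, 11 of 22 on day 21, 9 of 22 on day 28, 11 of 22 on day 35 and 8 of 17 on day 42. The lost calls were of Per2 on day 7 (day 7 replicate 3, CTRL replicate 10, adjusted p up to 0.0746), of Per1 on day 28 (day 28 replicate 9, CTRL replicate 10, up to 0.0566), of Clock on day 21 (day 21 replicates 1, 2, 3, 5, 6 and 10, CTRL replicates 2, 5, 6, 7 and 9, adjusted p up to 0.0930), on day 35 (day 35 replicates 1, 2 and 9, CTRL replicates 2, 6, 7 and 9, up to 0.0746) and on day 42 (day 42 replicates 1, 2, 4 and 7, CTRL replicates 6 and 7, up to 0.0999), of Nr1d1 on day 28 (day 28 replicates 1, 2 and 5, CTRL replicates 1 to 4, up to 0.0759) and of Dbp on day 42 (day 42 replicates 1, 2, 3, 4 and 7, CTRL replicates 1 and 6, up to 0.0751). Dbp was gained on day 35 without day 35 replicate 10, 11 or 12 or CTRL replicate 10 (0.0321 to 0.0467), and Clock on day 7 without day 7 replicate 3 (0.0400). Within CTRL, correlations with Arntl rest on 10 mice with 29 to 60 counts of it each. Correlations with Arntl that turned sign within a group were those of Per2 on day 7 (0.6391), Per3 in CTRL (0.216) and Nr1d1 in CTRL (0.09628) and on day 35 (0.06477). The cause of these shifts was not tested. Depth limits Npas2, with as few as 5 counts in a CTRL library.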

Other observations

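Markers of other cells were called as follows, beside 24.8%, 32.4%, 28.3%, 24.1%, 16.9% and 13.7% of all genes called higher and 21.0%, 29.9%, 25.8%, 19.2%, 13.1% and 11.0% called lower. In the order of the 6 days, AT1 markers (7) were higher in 1, 1, 1, 1, 0 and 1 and lower in 3, 4, 3, 3, 1 and 0. AT2 markers (8) were higher in 1, 0, 1, 1, 2 and 1, and lower in 1 on day 7 and 6 on day 14. Fibroblast markers (8) were higher in 2, 5, 4, 3, 3 and 0 and lower in 2, 2, 2, 2, 1 and 1. Smooth muscle markers (5) were higher in 2, 3, 3, 0, 0 and 0 and lower in 0, 2, 2, 2, 1 and 2. Alveolar macrophage markers (6) were higher in 2, 3, 5, 4, 3 and 3, and lower in 1 on each day. Of 5 neutrophil markers, 2 were higher on day 14, and of 6 T cell markers, 1 was lower on day 14 and 1 on day 35. B and plasma cell markers (6 of 7 tested) were higher in 0, 1, 1, 1, 2 and 1 and lower in 4, 4, 4, 0, 0 and 0. Red blood cell markers (3) were lower in 3, 3, 3, 2, 3 and 3. Cardiac muscle markers (4) were higher in 1 on day 14 and in 4 on day 28, as was the 1 tested of 3 skeletal muscle markers on day 28. Replicate 10 of day 28 had the highest summed cardiac markers of all mice, 1924 CPM against 630 CPM in the next. Its skeletal muscle markers were at 838 CPM, against 13.3 CPM in the next. The calls of these markers without that mouse were not tested. Thymus markers (2 of 4 tested) were lower in 2, 2, 1, 0, 2 and 1, and the 1 tested of 2 brown fat markers was lower on day 21. The part of these cells in the clock gene differences was not tested.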
